A study of Glycine max with 8 samples.

Results

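Mock-treated soybean (Glycine max) seedlings that over-expressed GmSIN1 were compared with mock-treated seedlings that were wild type for this gene. The groups were defined by the labels alone, but the comparison was chosen with earlier results of these data known. It uses 4 of the 8 RNA-seq libraries of the series. These are 2 for OE mock (GmSIN1 over-expression, no NaCl) and 2 for WT mock (the line WEI6823, no NaCl). The other 4 libraries, OE NaCl and WT NaCl, are the same genotypes after 150 mM NaCl for 6 h. They entered the fit for their spread, and their values are given beside those of the mock libraries. All seedlings were 2 weeks old, stood in hydroponic solution and had the mock or NaCl treatment for 6 h. RNA was extracted from roots and from leaves and mixed in equal amounts, so each value is an average over both organs. The promoter that drives GmSIN1, the number of transgenic lines, the plants per library and the parent of the over-expressing line are stated in none of the sources used here. P-values therefore measure only the spread between these libraries. An effect of GmSIN1 and a difference in genetic background between the lines cannot be told apart.

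GmSIN1 is a salt-induced NAC factor. NAC proteins are a plant-specific family of transcription factors that bind DNA through a conserved domain near their N-terminus, and many of them act in responses to salt, drought and abscisic acid, the hormone that restrains water loss and growth under osmotic stress. Over-expression of such a factor can alter genes it binds and, through them, further genes, and a comparison of steady-state RNA does not separate these. The files name loci by ID only, and the reference gene table (assembly Glycine_max_v4.0) holds no ID of this kind, so no locus could be given a gene name or a role. The table lists SIN1 as a synonym of a gene on chromosome 13, again without such an ID. The level of GmSIN1 itself, which would check the genotype labels, was not analysed here, and no list of root or leaf marker genes could be applied. Loci are therefore described by chromosome, coding length and level, and 4 IDs are printed.

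The mock libraries held 5980170 to 6996308 expected counts. Levels are given as CPM, the count of a locus scaled to the TMM-adjusted size of its library. The WT mock libraries were close to each other, and the OE mock libraries were not. Of the 18506 loci with a mean of at least 10 CPM, 2310 differed by 2-fold or more between OE mock libraries 1 and 2, and 13 did so between WT mock libraries 1 and 2. The chi-square per degree of freedom between libraries of a group was 32.6 in OE mock and 1.41 in WT mock. Division of reads between gene models can add spread beyond counting error, and its part in these values was not tested. The 1.41 therefore does not show that the WT mock libraries differed in their RNA. A comparison of the genotypes thus sets a pair of dissimilar OE libraries against a pair of nearly equal WT libraries. The edgeR test used below fits 1 spread per locus for all groups. Its p-values and standard errors therefore assume an equal spread in OE and WT, which these libraries did not have.

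Over-expressing seedlings differed from WT seedlings at many loci in both directions. Of 34023 loci tested, 1430 (4.2%) were higher and 1608 (4.73%) lower in OE mock than in WT mock, and together 8.93% were called. A locus is called here when its edgeR quasi-likelihood p, adjusted over all tested loci, is below 0.05. At all 1430 higher and all 1608 lower loci, both OE mock libraries lay beyond both WT mock libraries in the same direction. This was so for 32.5% of all tested loci upward and for 32.9% downward, so most loci without overlap between the groups did not pass the test. In bulk samples such as these, fewer cells of a type and less RNA per cell cannot be told apart, and neither can a change in one organ from an unequal share of the organs. The number of called loci depended on the libraries fitted. It was 1 without WT mock library 1 and 1 without WT mock library 2, 739 without OE mock library 2, 428 and 409 without WT NaCl library 1 or 2, and 7971 and 8137 without OE NaCl library 1 or 2. No called locus changed sign in any of the 16 refits listed in the processing notes. At every called locus both OE mock libraries lay beyond both WT mock libraries, so a constant sign was largely set in advance. It does not show that the calls are stable.

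Fold changes were larger among the higher than among the lower loci, though this was not tested. The median log2 fold change of the higher loci was 2.17 and that of the lower loci -1.52, beside 0.03 over all tested loci. The fitted difference reached 4-fold at 788 higher and 464 lower loci, and 16-fold at 298 and 71. Where WT was nearly silent, a fold change rests on few counts. On the log2(CPM + 1) scale, which damps low levels, the higher loci had a median difference from the WT mock mean of 1.59 in OE mock library 1 and 1.91 in library 2. The lower loci had medians of -1.34 and -1.43 in these libraries.

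OE mock library 2 departed further from WT than library 1 did. Among loci at 10 CPM or more, 27.3% lay 2-fold or more from the WT mock mean in OE mock library 2 and 17.6% in library 1. In 1297 loci both OE libraries were at least 2-fold above the WT mean, and in 1089 both were at least 2-fold below it. Both libraries are set against the same WT mean, so nothing is read from their shared direction. Of the loci that were 2-fold off in both libraries, 594 above and 258 below did not pass the edgeR test. The difference was larger in library 2 than in library 1 at 1035 of the 1430 higher loci (72.4%) and at 966 of the 1608 lower loci (60.1%). With CPM of the library total, without TMM, this was so at 845 higher and 1228 lower loci, so library 2 departed further in both directions, but the order of the 2 shares turned. The OE libraries themselves stood 2-fold or more apart at 285 higher loci (19.9%) and 61 lower loci (3.79%), against 16.7% of all tested loci. The test passes loci with a small spread more readily, so these shares are partly set by it.

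**Figure D1:**
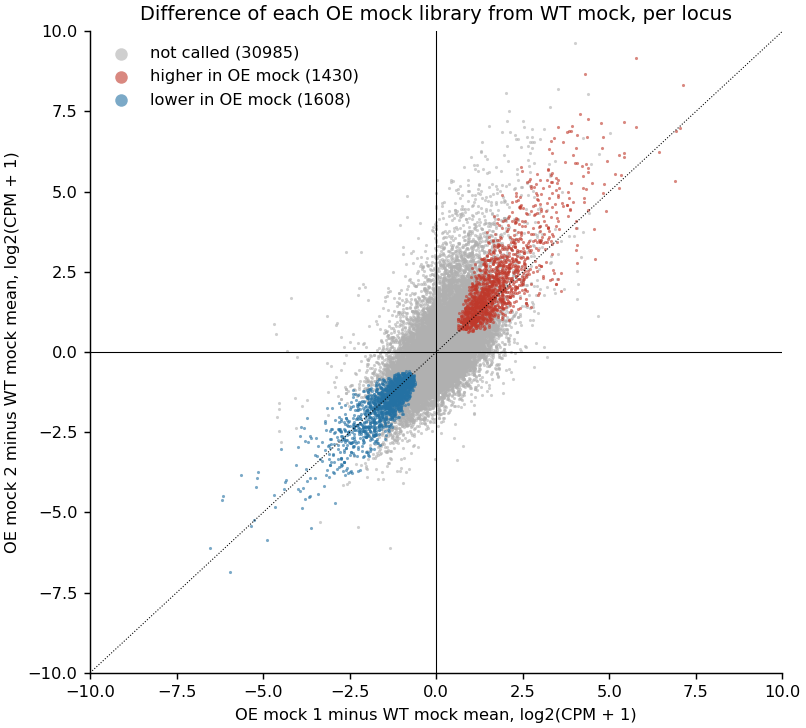
Each point is 1 of the 34023 tested loci, placed by its difference from the WT mock mean in OE mock library 1 (horizontal) and OE mock library 2 (vertical), both as log2(CPM + 1) and against the same WT mean; the dotted line marks equal differences. The 1430 higher loci lie in the upper right and the 1608 lower loci in the lower left, and far-off points lean toward the vertical axis on the upper side, where library 2 departed further.

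The called loci took up a sizeable part of the libraries. The 1430 higher loci held 8.39% and 10.1% of all expected counts in OE mock libraries 1 and 2, against 2.60% and 2.58% in WT mock libraries 1 and 2. The 1608 lower loci held 3.38% and 2.76% in OE mock libraries 1 and 2, against 9.73% and 9.74% in WT mock libraries 1 and 2. The groups did not overlap in either share. These loci were chosen for their difference between the same libraries, so the shares describe its extent and are no test. The 100 most abundant loci of each library held 13.9% and 15.7% in OE mock and 13.4% and 13.2% in WT mock.

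**Figure D2:**
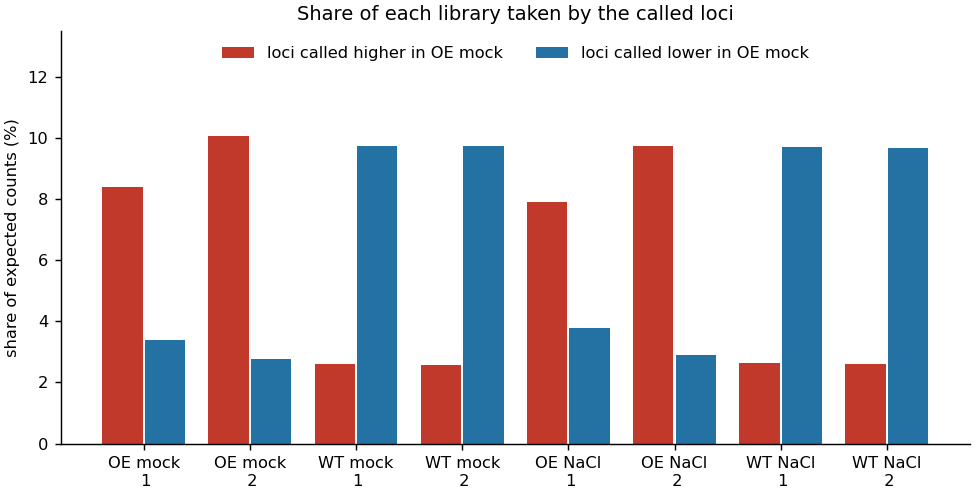
Bars give the percentage of a library's expected counts that fell on the 1430 loci called higher and the 1608 loci called lower in OE mock, for each of the 8 libraries. In OE libraries the higher loci took more counts than the lower loci, and in WT libraries the order was the opposite, under both treatments.

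Of the 12 loci that ranked first among those higher in OE, all but 1 stood at 3.16 CPM or less in both WT mock libraries, the exception being rank 10. Per kilobase, ranks 2 and 8, which are short, had 15.5 to 22.9 FPKM in WT mock, above the median of 9.46 FPKM over all tested loci. Loci were ranked by the gap between the nearest OE and WT mock libraries, among 904 loci that passed the edgeR test in the fit of all 8 libraries and in that of the 4 mock libraries and reached a mean of 10 CPM in OE mock. First came Glyma.07G243500 on chromosome 7, with a coding length of 498 bases. It had 234 and 535 CPM in OE mock libraries 1 and 2, against 0.771 and 0.582 CPM in WT mock libraries 1 and 2. Both OE libraries were high, library 2 more so, and the nearest libraries of the groups lay 303-fold apart. WT mock held 8.76 expected counts of it in all, so this ratio rests on few counts. The fitted log2 fold change was 9.08 ± 0.57 (± standard error here and below; edgeR adjusted p = 0.0028). Per kilobase it stood at 525 and 1043 FPKM in OE mock, against 1.72 and 1.29 FPKM in WT mock.

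Glyma.05G011200 on chromosome 5 ranked next and encodes a short product, with a coding length of 213 bases. It had 519 and 506 CPM in OE mock libraries 1 and 2, against 2.78 and 3.16 CPM in WT mock libraries 1 and 2. Here the OE libraries were nearly equal, and the log2 fold change was 7.42 ± 0.52 (edgeR adjusted p = 0.00296). A locus of similar coding length on chromosome 17 (201 bases) ranked 3 and had 184 and 179 CPM in OE mock, against 0.491 and 0.575 CPM in WT mock. These 2 loci kept the same order between libraries in all 4 OE libraries, being highest in OE NaCl library 1 (1044 and 385 CPM). Both carry fractional counts, so part of their reads was shared with other gene models. Ranks 1 to 3 lost their call without either WT mock library, where the adjusted p of Glyma.05G011200 was at most 0.0715 and that of Glyma.07G243500 at most 0.0647.

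Other loci near the top varied strongly between the OE libraries. On chromosome 15, the locus at rank 6 (1809 bases) had 79.2 and 836 CPM in OE mock libraries 1 and 2, against 0.655 and 0.287 CPM in WT mock libraries 1 and 2. Library 2 was far above library 1, and both were above WT. The order of the OE libraries was the opposite for a chromosome 4 locus (1806 bases, rank 9), with 136 and 45.6 CPM in OE mock libraries 1 and 2, against 0.164 and 0.144 CPM in WT mock. WT mock held 2 counts of it in all, and the ratio of the groups was 605 (exact 95% interval for counting error only, 167 to 4998). The locus at rank 10 on chromosome 11 (1740 bases) was not silent in WT and had 566 and 1031 CPM in OE mock libraries 1 and 2, against 13.2 and 13.8 CPM in WT mock libraries 1 and 2. Its log2 fold change was 5.89 ± 1.21 (edgeR adjusted p = 0.0349). This call was lost without any one of the 4 mock libraries or either WT NaCl library, with an adjusted p of up to 0.241 and log2 fold changes of 5.39 to 6.24. Loci at ranks 6 and 9 lost theirs without either WT mock or WT NaCl library and with limma-voom (adjusted p up to 0.204 and 0.241).

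The remaining 6 higher loci by rank lay on chromosomes 18, 7, 10, 2, 3 and 9. The one on chromosome 10 was at 0 counts in WT mock and at least 395-fold higher in OE mock when WT mock is set at 3 counts over the group. The other 5 had log2 fold changes of 5.80 to 8.89. The 8.89 belongs to the locus on chromosome 3 (726 bases, rank 11), which had 1 count in WT mock. Its log2 fold change was 11.26 without WT mock library 1 and 7.97 without WT mock library 2, and its ratio of the groups was 592 (exact 95% interval for counting error only, 106 to 23405). A locus on chromosome 18 (348 bases, rank 4) had whole counts in the mock libraries. It had 124 and 110 CPM in OE mock libraries 1 and 2, against 0.491 and 0.431 CPM in WT mock libraries 1 and 2. A short locus on chromosome 2 (153 bases, rank 8), also with whole counts, had 152 and 241 CPM in OE mock and 2.46 and 2.73 CPM in WT mock. The chromosome 7 locus (486 bases, rank 5) has an ID close to that of Glyma.07G243500. It had 79.6 and 187 CPM in OE mock, against 0.375 and 0.569 CPM in WT mock. Both chromosome 7 loci carry fractional counts, and whether they share reads was not tested. All 6 lost their call without either WT mock library (adjusted p up to 0.156), and those on chromosomes 18 and 10 also with limma-voom.

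The 12 loci that ranked first among those lower in OE differed in how much RNA remained. Ranks 5 and 10 to 12 kept 4.69 to 14.6 CPM in OE mock, and the others stood at 4.56 CPM or less. They were ranked in the same way among 1097 loci, whose mean of 10 CPM or more in WT mock was a condition of the ranking. Glyma.13G095000 on chromosome 13 (864 bases) came first, with 0.148 and 0.548 CPM in OE mock libraries 1 and 2, against 103 and 108 CPM in WT mock libraries 1 and 2. The nearest libraries of the groups lay 189-fold apart, a ratio that rests on 4.43 expected counts over OE mock. Glyma.20G115900 on chromosome 20 (447 bases) came next, with 2.44 and 0.830 CPM in OE mock libraries 1 and 2, against 209 and 217 CPM in WT mock libraries 1 and 2. Its log2 fold change was -7.04 ± 0.57 (edgeR adjusted p = 0.00358). Per kilobase it had 5.90 and 1.74 FPKM in OE mock, against 500 and 517 FPKM in WT mock. Both loci lost their call without either WT mock library, with an adjusted p of up to 0.0647 for Glyma.13G095000 and 0.0665 for Glyma.20G115900.

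One lower locus kept its call throughout. It lay on chromosome 18 (963 bases, rank 4), had whole counts, and stood at 0.444 and 0.479 CPM in OE mock libraries 1 and 2, against 58.4 and 52.0 CPM in WT mock libraries 1 and 2. Its log2 fold change was -6.85 ± 0.24 (edgeR adjusted p = 0.000966), between -6.91 and -6.68 in 16 refits, where the adjusted p was at most 0.0268. It was the single locus called without WT mock library 1 and also without WT mock library 2. Rank 3 was held by a locus on chromosome 12 (2079 bases) with 5 gene models and whole counts, which had 1.04 and 0.958 CPM in OE mock, against 83.5 and 82.0 CPM in WT mock.

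Other lower loci kept a measurable level in OE. A locus on chromosome 2 (1167 bases, rank 5) had 10.1 and 4.69 CPM in OE mock libraries 1 and 2, against 322 and 336 CPM in WT mock libraries 1 and 2. Its log2 fold change of -5.48 ± 0.99 (edgeR adjusted p = 0.0254) lost the call without any one of the mock libraries or either WT NaCl library, with an adjusted p of up to 0.164. The lower loci ranked 10 to 12, on chromosomes 11, 11 and 2, kept between 6.73 and 14.6 CPM in OE mock, against 190 to 289 CPM in WT mock. In FPKM they stood at 8.40 to 15.8 in OE mock, where the median over all tested loci was 9.41. Their log2 fold changes were -4.49, -4.76 and -4.32. At rank 9, a chromosome 4 locus (525 bases) had 1 count in OE mock and a ratio of WT mock over OE mock of 322 (exact 95% interval for counting error only, 57.3 to 12742). The lower loci other than rank 4 all lost their call without either WT mock library.

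**Figure D3:**
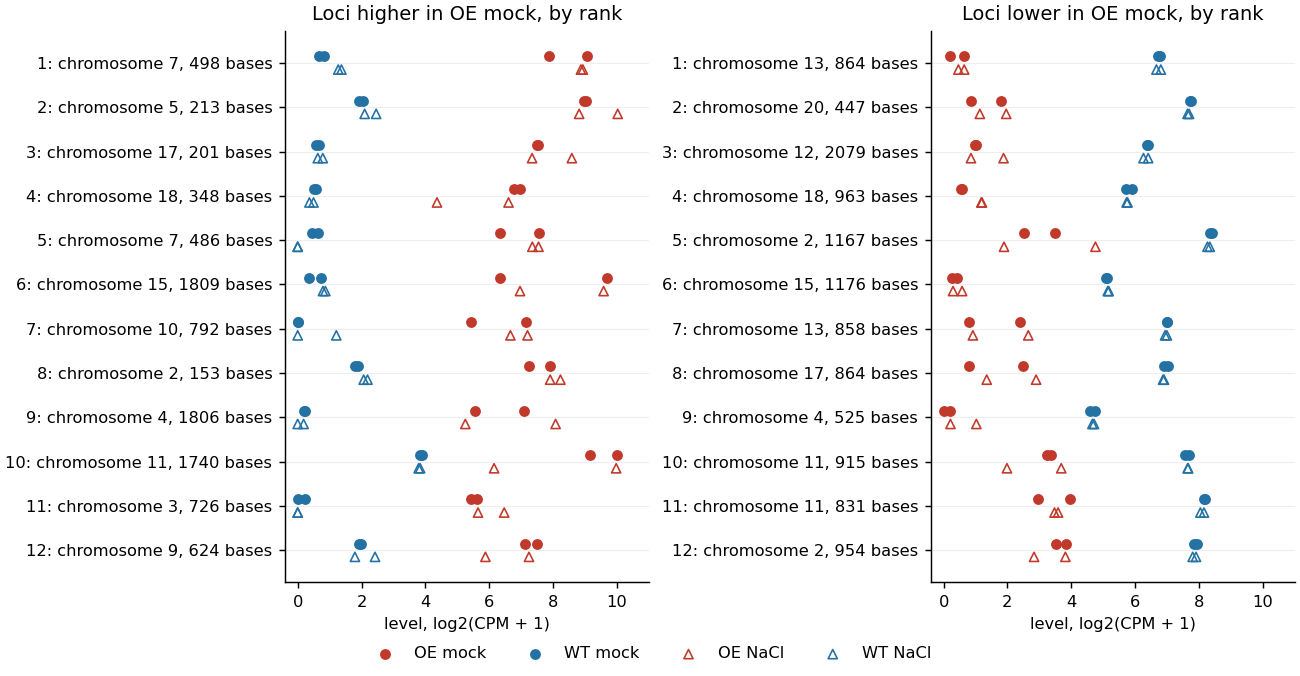
Levels as log2(CPM + 1) of the 12 highest-ranked higher loci (left) and lower loci (right) in all 8 libraries, labelled by rank, chromosome and coding length; red marks OE and blue WT, filled circles mock and open triangles NaCl. OE and WT symbols do not overlap at any of the 24 loci, WT symbols cluster tightly, and OE symbols spread most at the loci on chromosomes 15 (rank 6) and 11 (rank 10) on the left.

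A minority of the called loci had 0 counts in both mock libraries of 1 genotype. The share of all tested loci at 0 counts is not given here, so nothing is read from the shares below. Of the 1430 higher loci, 83 (5.80%) were at 0 counts in WT mock libraries 1 and 2, and 20 of these reached a mean of 10 CPM in OE mock. Set against 3 counts over the WT mock group, they were at least 5.36-fold to at least 395-fold higher, with a median bound of 19.8. In WT NaCl 50 of the 83 again had 0 counts and 76 had at most 3. Of the 1608 lower loci, 14 (0.871%) were at 0 counts in OE mock libraries 1 and 2, and 0 of them reached 10 CPM in WT mock. They were at least 4.56-fold to at least 40.3-fold lower. In OE NaCl 6 of the 14 again had 0 counts and 9 had at most 3.

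Some called loci stood next to each other on the chromosome. Taking the tested loci in the order of their IDs, 214 of the 1423 higher loci on chromosomes lay in 103 runs of 2 or more neighbours that were all higher, and 238 of the 1596 lower loci lay in 112 such runs. Most runs held 2 loci. Some runs arise even when calls are unrelated to position, and the number to expect from the shares of called loci was not computed. The counts of runs therefore do not show that called loci cluster. There were 3 runs of 4 or more, chosen here for their length after the calls were known. Neighbouring loci of like sequence can share reads, which was not tested, so the members of a run may not be separate measurements. In a run of 3 higher loci on chromosome 13, the 2 outer loci (1098 bases each) had the same CPM in all 8 libraries.

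The longest run was 5 lower loci on chromosome 17, of 858, 864, 858, 879 and 882 coding bases. Over these 5 loci the levels were 0.570 to 8.99 CPM in OE mock libraries and 29.1 to 129 CPM in WT mock libraries. The locus of 864 bases, rank 8 among the lower loci, had 0.741 and 4.56 CPM in OE mock libraries 1 and 2. In WT mock libraries 1 and 2 it had 129 and 120 CPM. A run of 4 lower loci on chromosome 13, which contains Glyma.13G095000, has coding lengths of 858, 864, 348 and 858 bases. Its first member, rank 7 among the lower loci, had 0.741 and 4.22 CPM in OE mock libraries 1 and 2. In WT mock libraries 1 and 2 this member had 127 and 126 CPM. The last member had 0.357 and 3.74 CPM in OE mock, against 69.4 and 65.1 CPM in WT mock. Both runs hold loci of 858 and 864 bases, and the fold changes of these loci were not alike. At 864 bases the log2 fold change was -8.34 on chromosome 13 and -5.54 on chromosome 17. At 858 bases it was -5.70 and -5.09 on chromosome 13, and -3.33 and -3.12 on chromosome 17. These differences between loci were not tested. All members of both runs carry fractional counts. The chromosome 17 loci of 858 bases had the same level in OE mock library 2 (8.99 CPM) and in OE NaCl library 2 (8.67 CPM). Whether members share reads was not tested, so these values may not be separate measurements.

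The longest run of higher loci held 4 short loci on chromosome 8, with coding lengths of 213, 273, 177 and 204 bases. The locus of 177 bases, which had whole counts, stood at 37.6 and 84.3 CPM in OE mock libraries 1 and 2, against 5.24 and 7.33 CPM in WT mock libraries 1 and 2. The locus of 273 bases had 19.0 and 22.7 CPM in OE mock and 1.23 and 1.15 CPM in WT mock. On chromosome 16, 3 neighbouring loci of 663, 666 and 666 bases were higher in OE, and the middle one had 15.8 and 108 CPM in OE mock libraries 1 and 2, against 0 counts in both WT mock libraries. On chromosome 3, loci of 726 bases stood on either side of one of 198 bases, and the short locus had 1.63 and 3.35 CPM in OE mock libraries 1 and 2, against 0 counts in WT mock.

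**Figure D4:**
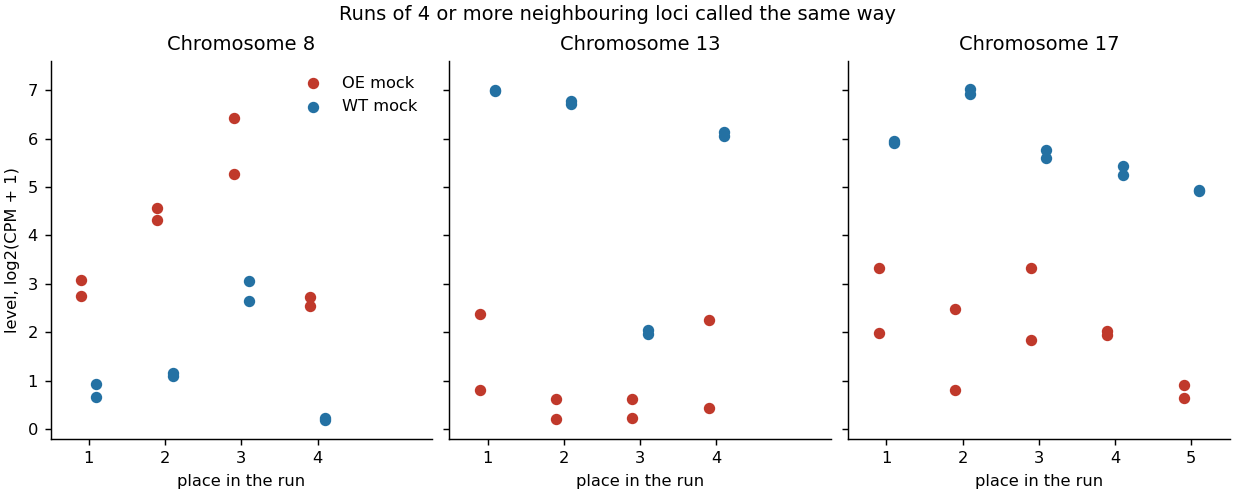
Levels as log2(CPM + 1) of each locus in the 3 runs of 4 or more neighbouring loci called the same way, with OE mock libraries in red and WT mock libraries in blue. The run on chromosome 8 is higher in OE and those on chromosomes 13 and 17 are lower, and at no locus do the OE and WT libraries overlap.

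The called loci lay on all 20 chromosomes. The share of tested loci called higher was 2.80% on chromosome 20, the lowest, and 5.19% on chromosome 11, the highest, around the 4.2% over all loci. The share called lower was 3.31% on chromosome 5 and 5.82% on chromosome 17, around 4.73% over all loci. Among the 191 tested loci on scaffolds outside the chromosomes, 7 were higher and 12 lower.

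The balance of directions differed with the level per length. In the lowest quartile class of mean FPKM over the mock libraries, up to 4.07 FPKM, 3.23% of loci were higher and 1.36% lower in OE. In the highest class, from 23.6 FPKM upward, 5.24% were higher and 7.55% lower. The classes are built from the same mock libraries as the calls, so the class of a locus depends partly on its direction. The shares are therefore a description and no test. The higher loci had a median of 19.8 FPKM in OE mock and 4.31 FPKM in WT mock, and the lower loci 8.61 FPKM in OE mock and 27.6 FPKM in WT mock, where all tested loci had medians of 9.41 FPKM in OE mock and 9.46 FPKM in WT mock. Counts per locus are larger at higher levels, and their part in these shares was not tested. The number of gene models went with the share of higher loci, which was 4.66% at loci with 1 model and 2.84% at loci with 4 or more. A model was counted if it was listed for any of the 8 libraries. The number can therefore depend on level, which was not tested. The share of lower loci was 4.51% and 5.30% at these loci. By coding length the shares of higher loci lay between 3.94% and 4.47% in all quartile classes, and those of lower loci were 4.05% in the shortest class and 5.25% in the longest.

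**Figure D5:**
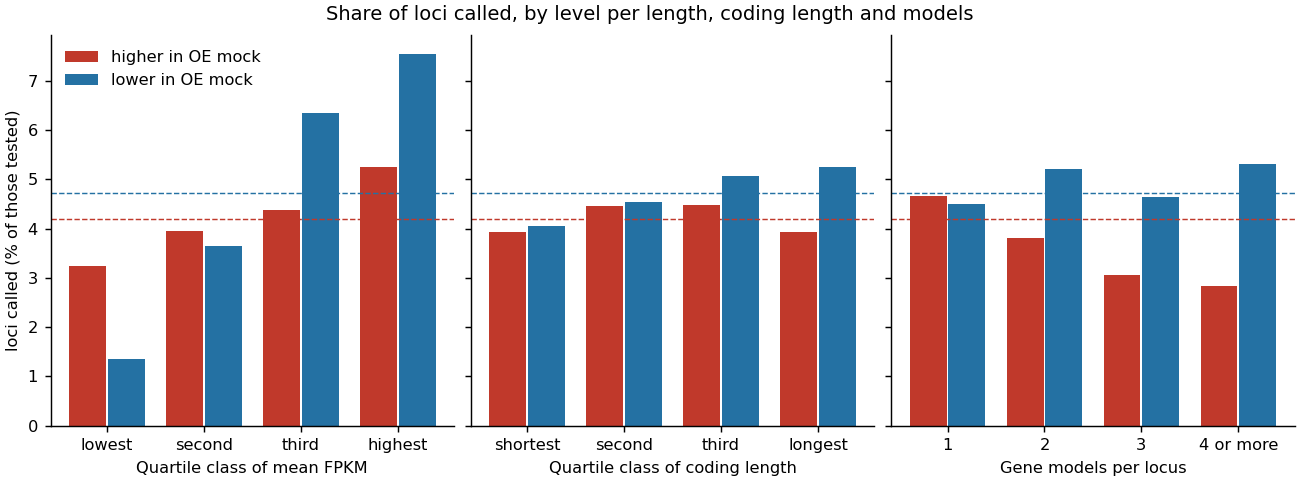
Bars give the percentage of tested loci called higher (red) and lower (blue) in OE mock, in quartile classes of mean FPKM (left) and of the longest coding length (middle), and by gene models per locus (right); dashed lines mark 4.2% and 4.73%, the shares over all loci. Lower loci make up 1.36% of the lowest and 7.55% of the highest FPKM class, and higher loci fall to 2.84% at loci with 4 or more models.

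The loci called in mock differed in the same direction between the NaCl libraries. At 1424 of the 1430 higher loci (99.6%) both OE NaCl libraries lay above both WT NaCl libraries, which was so for 26.8% of all tested loci. At 1601 of the 1608 lower loci (99.6%) both lay below, against 29.4% of all loci, and at 0 loci of either list were the libraries apart in the opposite direction. The loci were called in a fit that took its spread from the NaCl libraries too, so loci whose NaCl libraries lay close together were favoured and these shares are partly set by the choice. Of the loci called with only the 4 mock libraries, 1546 of 1835 higher loci (84.3%) and 1462 of 1482 lower loci (98.7%) were without overlap in the same direction in NaCl, against 25.4% and 30.6% of the 32002 loci tested there. Mock and NaCl comparisons share no library, yet OE libraries with the same number departed from their group means together (r = 0.769 across loci), so the NaCl libraries are no independent replicate of the mock ones. Median log2 fold changes in NaCl were 1.93 for the higher and -1.40 for the lower loci, and the difference was smaller in NaCl than in mock at 67.5% and 64.1% of them. The loci had been chosen for their difference in mock. A test of the difference between the genotype effects in NaCl and in mock called 0 of 34023 loci in edgeR and 0 in DESeq2. In edgeR 232 loci had an unadjusted p under 0.05, 55 of them among the 3038 called loci, and in DESeq2 63 did. Both counts fall short of a share of 0.05, which a test with well-estimated spread gives when nothing differs. The test did not pair the OE libraries by number, though these departed together. The 0 calls therefore do not show equal effects in mock and NaCl.

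At the higher loci, most changes of 2-fold or more between OE mock and OE NaCl lay in the libraries numbered 1. Among the higher loci, OE NaCl library 1 was at least 2-fold above OE mock library 1 at 110 and at least 2-fold below it at 137. Between the libraries numbered 2 this was so at 0 and 4. Such changes between the libraries numbered 1 were fewer among the lower loci. Counts over all tested loci are not given here, so these changes are not read as particular to the called loci. Glyma.07G243500 had 489 and 469 CPM in OE NaCl libraries 1 and 2, against 1.59 and 1.41 CPM in WT NaCl libraries 1 and 2. Glyma.05G011200 had 1044 and 451 CPM in OE NaCl, against 3.28 and 4.50 CPM in WT NaCl. The chromosome 11 locus at rank 10 stood at 70.2 and 1010 CPM in OE NaCl libraries 1 and 2, against 13.3 and 12.8 CPM in WT NaCl. Glyma.20G115900 stayed low, with 2.90 and 1.20 CPM in OE NaCl, against 206 and 199 CPM in WT NaCl.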

How the data were processed

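Per the submitters' processing notes, RSEM made the deposited values; its version, the aligner, the genome build and the annotation are stated in none of the sources used here. The authors' files hold, per the file headers, an expected count, an FPKM value and a length for each gene model. All lengths are multiples of 3, so they are coding lengths. For each of 47268 loci, the expected counts of all its models were added (0 for a model absent from a file) and rounded; FPKM served only for levels per length.

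Loci were tested with edgeR 4.0.16 in R 4.3.3 (filterByExpr, TMM, glmQLFit, glmQLFTest, 1 coefficient per group, all 8 libraries, Benjamini-Hochberg at 0.05). Standard errors follow from the F statistic. The 16 refits used RLE scaling, a stricter filter (at least 1 CPM in 2 libraries and 40 counts in all), no filter, DESeq2 1.42.0, limma-voom (limma 3.58.1), only the mock libraries, a replicate block in both sets of libraries, and each library left out in turn. Code was tested on simulated counts. The floor for a group with 0 counts was 3 counts over the group.

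The named loci were the 12 of each direction with the largest log2(CPM + 1) gap between the nearest OE and WT libraries, among loci called with all 8 and with the 4 mock libraries. The rule also asked for a gene description, which no locus could be given, so this condition was dropped; the planned gene lists, which needed descriptions, were not run. Loci were held to have whole counts within a tolerance of 0.01, which 14.7% of tested loci met in all mock libraries. The comparison and the rules were chosen with earlier results of these data known.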

Additional observations from a re-analysis of the deposited data

How the results depend on the processing

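Of the 3038 called loci, 95.7% were also called in the same direction with RLE scaling (1509 higher, 1478 lower), 98.6% with the stricter filter, 86.6% without a filter and 77.4% with only the 4 mock libraries (1835 higher, 1482 lower), and 2693 differed by 2-fold or more. DESeq2 called 5146 loci, 3102 of them higher, and limma-voom 2269 loci, 825 of them higher and 1444 lower. Under the scalings, filters, tools and mock-only fit together, 739 higher and 1104 lower loci kept their call. Which direction held more loci thus turned with the setting. Leaving out 1 library gave 0 to 4152 higher, 1 to 3985 lower and 1 to 8137 called loci; the cause was not tested. A replicate block gave 4671 called loci (2561 higher) with all 8 libraries and 4854 (2887 higher) with the mock libraries; the cause was not tested. The numbers do not pair the genotypes: deviations of equally numbered libraries had r = -0.00882 between OE mock and WT mock across loci and r = 0.769 between OE mock and OE NaCl, and the other 4 pairs of groups lay between -0.0158 and 0.0211. When CPM of the library total, added after the data were seen, replaced TMM, the printed counts by library number and of NaCl libraries without overlap stayed within 1.5 times, except that the higher loci 2-fold above and 2-fold below between OE NaCl library 2 and OE mock library 2 were 1 and 2, not 0 and 4. Taking the loci called with only the mock libraries, also added after the data were seen, 90.7% were without overlap in NaCl, against 99.6%. With 5980170 to 7199775 counts per library, loci below 1 CPM rest on few reads.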

Other observations

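Among 109 loci that were higher by 16-fold or more with both OE mock libraries at 10 CPM or above, chosen after their values were seen, the level in OE NaCl library 1 over that in OE mock library 1 varied from 0.114 to 2.78. The median ratio was 1.82 with quartiles of 1.05 and 2.03, and 68 of the 109 ratios lay between 1.5 and 2.5, while 14 lay below 0.5. Between OE NaCl library 2 and OE mock library 2 the ratios spread less, from 0.753 to 1.25. Between OE mock library 2 and OE mock library 1 they ran from 0.335 to 21.6, with a median of 2.67. The loci on chromosomes 7, 5 and 17 at ranks 1 to 3 are among the 68, at 489 against 234, 1044 against 519 and 385 against 184 CPM. These ratios were not tested, since each compares 1 library with 1 other.

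Fractional counts, which arise where reads are divided between gene models, were common among called loci of both directions, and a whole count does not show that no read was shared. Whole counts in all 4 mock libraries were found at 16.7% of the higher, 9.51% of the lower and 14.7% of all tested loci. Among the 4986 loci with whole counts, 239 (4.79%) were higher and 153 (3.07%) lower, against 4.2% and 4.73% of all tested loci.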
